A study of Mus musculus with 6 samples.

Results

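The gene Tiparp and 9 further ADP-ribosyltransferase genes of the PARP family (Parp1, Parp2, Parp3, Parp4, Parp8, Parp9, Parp10, Parp12 and Parp14) were examined in mouse gastrocnemius muscle. They were taken by gene symbol from the deposited counts, where all 10 were found among 49315 genes and all 10 had enough counts to be tested. The animals were C57BL6J males that received an AAV9 vector (adeno-associated virus) in the gastrocnemius when 5 months old, and the muscle was taken 5 months later. In 3 libraries the vector encoded an aryl hydrocarbon receptor that is always active (AAV9-HSA-CAAHR, replicates 31, 34 and 36), and in 3 it encoded green fluorescent protein (AAV9-HSA-GFP, replicates 42, 43 and 46). HSA stands for the promoter of human skeletal actin, which drives expression in muscle fibres. Both groups therefore carried the same viral capsid and promoter, the active receptor lacked its ligand-binding domain, and uninjected muscle was not analysed here. The RNA came from whole muscle, so transcripts of the fibres that carried the vector and of the other cells between them were counted together.

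ADP-ribosyltransferases move ADP-ribose from NAD+ onto proteins or nucleic acids. PARP1 and PARP2 build long chains of ADP-ribose at DNA breaks, whereas most of the family add single units. Tiparp (TCDD-inducible poly(ADP-ribose) polymerase, also called PARP7) is induced by the aryl hydrocarbon receptor (AHR) and in turn ADP-ribosylates the receptor and restrains it, which makes it a feedback gene alongside the AHR repressor Ahrr. Several other members, among them Parp9, Parp10, Parp12 and Parp14, are known as interferon-responsive genes with roles in antiviral defence.

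The active receptor binds DNA at the xenobiotic response element, whose core letters are GCGTG, and the interferon factor ISGF3 binds elements in which the letters GAAA are repeated after any 2 bases. Promoters of 300 bases (250 before and 50 after the RefSeq start, GRCm38.p6) were at hand for 7 of the 10 genes, and Parp9, Parp10 and Parp14 had no entry. They are shown because the letters of the receptor's core stand in the promoters of the gene that rose and of those that were not called alike. The stretch of the Tiparp promoter before its first annotated exon, chr3:65528197-65528409 on the plus strand, holds the core once. The match lies on the minus strand and so is printed as its reverse complement CACGC, in capitals.
Tiparp: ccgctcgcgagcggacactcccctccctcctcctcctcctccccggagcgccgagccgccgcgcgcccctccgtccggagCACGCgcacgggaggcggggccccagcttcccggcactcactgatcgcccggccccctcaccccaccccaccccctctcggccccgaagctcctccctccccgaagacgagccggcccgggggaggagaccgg
For the other genes the core, in capitals, is given with 12 bases on each side, in the direction of the gene. It reads CACGC where the match lay on the strand opposite to the gene. Positions are counted from the start, with -1 as the base just before it. Parp8 held a second match and only its first is printed.
Parp1 (position -92): aggcagagaccaGCGTGcacaggcgcagt
Parp2 (position -190): gccgaagagtgaCACGCactcagcacgtg
Parp3 (position -218): gacgcagctggaCACGCcttcaagagctc
Parp4 (position -99): gaaagctgaggcCACGCcttctccccagc
Parp8 (position -201): gtgggaaggccgGCGTGcgggccgcgagg
Parp12 (position -54): gacgcctcgaggCACGCcgggtcgcccag
Of the AHR pathway genes searched, Cyp1a1 held the core once, Ahrr held it 3 times and Nqo1 held none. The match of Cyp1a1 is printed.
Cyp1a1 (position -54): tcagataaggagGCGTGgccaacagacac
On either strand, GCGTG stood in 7 of the 7 PARP family promoters and in 32.4% of all 32851 promoters of this length. The 7 promoters were also rich in G and C, from 56.7% to 73.7% against a median of 52.7% over all promoters. The longer form TNGCGTG, which contains the core, was in none of the 7, in Ahrr and in 5.07% of all promoters. The interferon letters were found in Parp4 alone among the 7, against 3.44% of all promoters. Parp4 held them as an overlapping pair, printed in capitals from chr14:56575462-56575491.
Parp4 (position -150): acactctGAAAAAGAAAGTGAAAgtcctga
A match in letters is a description of this window only.

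Library totals ranged from 43432994 to 58825752 counts, and each of the 10 genes had between 195 and 7280 counts in every library. Values below are CPM (each gene's share of its library's counts, scaled to 1000000) after TMM scaling between libraries. As a check of the labels, Ahr was at 9.96, 22.8 and 17.3 CPM in CAAHR replicates 31, 34 and 36 and between 1.87 and 2.55 CPM in the GFP libraries, without separating delivered from endogenous transcripts. The tissue was recognisable as fast skeletal muscle, with Myh4 between 57070 and 92740 CPM. The slow-fibre list, summed over 9 genes, was lowest among CAAHR libraries in replicate 34 and ranged from 649 to 2782 CPM against 228 to 461 CPM in GFP libraries. Over all 15847 genes tested, 1205 (7.60%) passed the threshold of 0.05 on the adjusted p, of which 481 (3.04%) were higher in CAAHR muscle and 724 (4.57%) were lower. An unadjusted p under 0.05 was reached by 23.9% of all genes. Of the calls on the adjusted p, 39.9% were higher, and that share was 26.6% with upper quartile scaling and 59.3% with library size only. No marker in the lists of macrophage, B and plasma cell, T and NK cell and neutrophil genes was at 0 in all 6 libraries, and Ncr1, which marks natural killer cells, was at 0 in 5 of the 6, with 1 count in GFP replicate 46.

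Tiparp was the gene of the family that rose. It was at 97.1 CPM in CAAHR replicate 31, 127 in replicate 34 and 119 in replicate 36, against 31.4 in GFP replicate 42, 22.4 in replicate 43 and 24.9 in replicate 46. The lowest CAAHR library stood well above the highest GFP library. The means were 114 ± 15.6 CPM (SD, n = 3) and 26.2 ± 4.64 CPM, a 4.36-fold difference. The log2 fold change was 2.13 ± 0.15 (SE) with an adjusted p of 0.000157 (edgeR quasi-likelihood test, Benjamini-Hochberg adjustment over all tested genes), and its 95% interval ran from 1.71 to 2.54. By its p-value Tiparp stood at place 13 among the 15847 genes tested, and by the size of the increase at place 87. The call was kept in all 14 alternative settings, where the log2 fold change lay between 2.02 and 2.28.

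The AHR pathway genes set the scale for that response. Cyp1a1 and Cyp1b1, monooxygenases that metabolise aromatic pollutants, had log2 fold changes of 7.77 ± 0.20 and 6.36 ± 0.24. Ahrr, the repressor of the receptor, had one of 7.69 ± 0.22, starting from 0.127 ± 0.0558 CPM in GFP muscle. Nqo1, a quinone reductase, had one of 3.21 ± 0.13. All of these and Ahr (2.87 ± 0.31) had an adjusted p under 0.05 by the same edgeR test, and Cyp1a2 had too few counts to be tested. Tiparp had the smallest fold change beside these genes, and unlike Ahrr it was already well expressed in GFP muscle. Among the 3 CAAHR libraries, Tiparp, Ahr, Cyp1a1, Cyp1b1 and Nqo1 were all lowest in replicate 31 and highest in replicate 34, while Ahrr was highest in replicate 36, at 29.2 CPM.

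**Figure D1:**
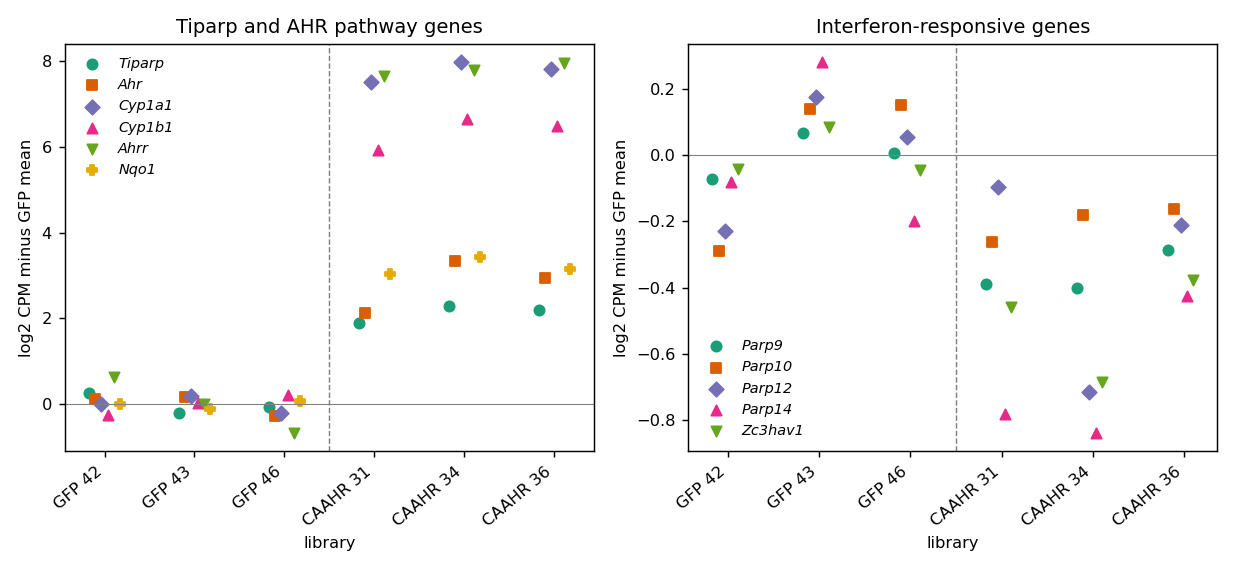
Log2 CPM of 11 genes in each library, with the mean of the 3 GFP libraries of that gene set to 0; the left panel shows Tiparp with AHR pathway genes and the right panel interferon-responsive genes, each point being a gene in a library. Every gene of the left panel is higher in all 3 CAAHR libraries than in all 3 GFP libraries, while on the right Parp10 and Parp12 overlap between the groups.

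Tiparp (chromosome 3, 65528410 to 65555518, plus strand, GRCm38) has 4358 exonic bases, of which 223 also lie in 4931440P22Rik, a pseudogene transcribed from the opposite strand. That transcript had 23 to 32 counts in the GFP libraries and 126 to 280 in the CAAHR libraries, with a log2 fold change of 2.70 ± 0.29 (edgeR adjusted p 0.000999), and it was singled out after its values were seen. Counting used strand only if the libraries kept it, and whether they did was not stated, so reads from the shared bases cannot be told apart here. The counts of the pseudogene were a small part of those of Tiparp, which had 932 to 1514 counts in GFP and 4910 to 7280 in CAAHR libraries.

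**Figure D2:**
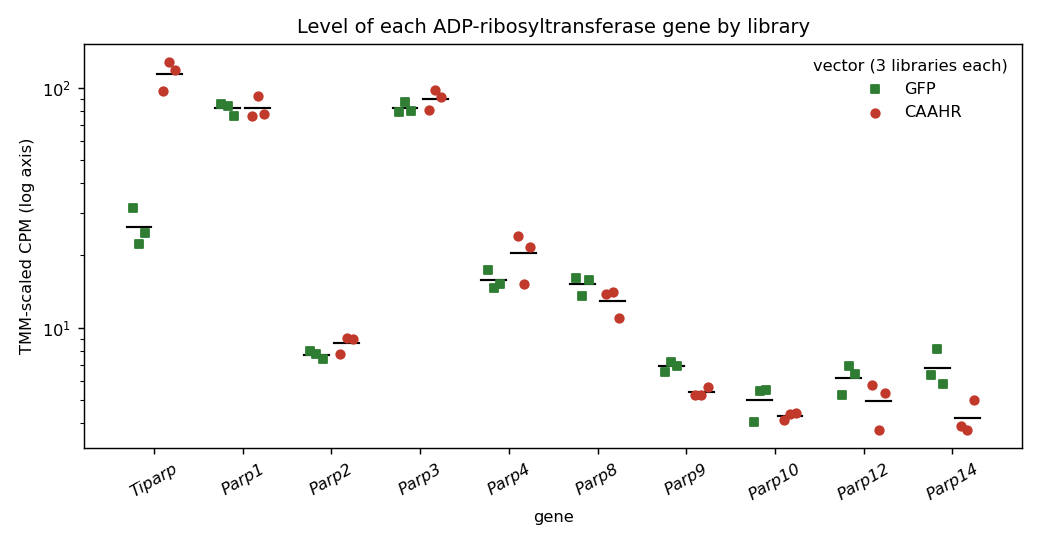
TMM-scaled CPM on a log axis for the 10 genes in the 3 GFP libraries (squares) and the 3 CAAHR libraries (circles), with a black line at each group mean. Tiparp is at 22.4 to 31.4 CPM in GFP and 97.1 to 127 CPM in CAAHR muscle, and Parp9 and Parp14 are the other genes whose groups do not overlap.

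Across the 10 genes, 1 was called higher (Tiparp) and 1 lower (Parp14), against backgrounds of 3.04% and 4.57% of all genes. The groups did not overlap for 3 of the 10 (Tiparp, Parp9 and Parp14), where 29.9% of all genes tested did not, so that share was close to the background. The median log2 fold change of the 10 was -0.11, against 0.01 over all genes tested. The 95% interval of Tiparp lay above those of the other 9 genes, of which the highest upper bound was 0.83, for Parp4.

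The contrast of Tiparp with each relative was also taken inside each library, as a ratio of counts, which does not depend on the scaling between libraries. Relative to Parp1, Tiparp counts were 1.27, 1.38 and 1.53 to 1 in CAAHR replicates 31, 34 and 36 and 0.367, 0.267 and 0.325 to 1 in GFP replicates 42, 43 and 46. Tiparp thus went from fewer counts than Parp1 in every GFP library to more in every CAAHR library, and the same crossing was seen against Parp3, with ratios of 1.21 to 1.31 against 0.258 to 0.398. The ratio rose 4.38-fold against Parp1 and 4.01-fold against Parp3. The smallest rise was 3.43-fold, against Parp4, and the greatest was 7.02-fold, against Parp14. For each of the 9 ratios the CAAHR libraries all lay above the GFP libraries. The exact two-sided permutation test gave p = 0.1 for each (0.1 adjusted over the 9), which is the smallest that 3 libraries against 3 can give. All 9 ratios share the Tiparp counts, so they restate the rise of Tiparp and are not 9 separate results.

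**Figure D3:**
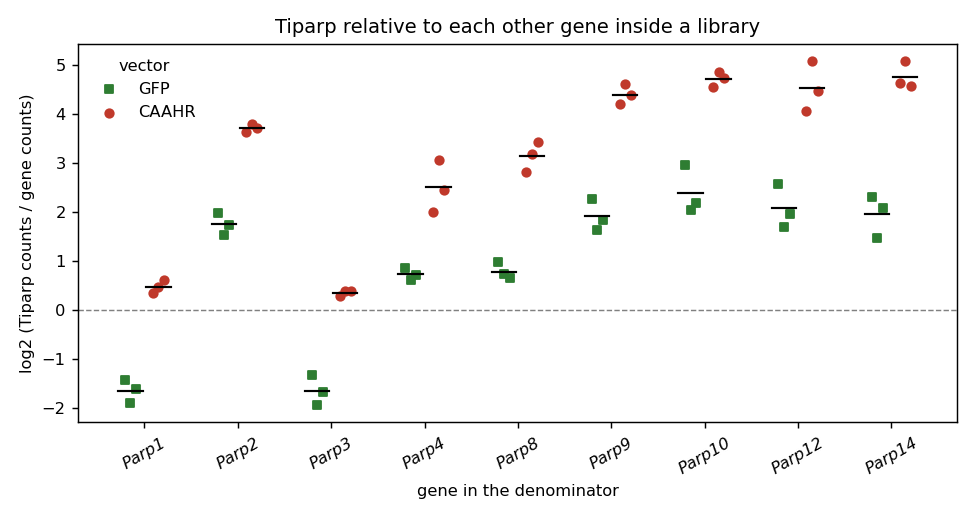
Log2 ratio of Tiparp counts to the counts of each other gene within a library, for GFP (squares) and CAAHR (circles) libraries, with a black line at each group mean and a dashed line where both genes have the same count. The CAAHR libraries lie above the GFP libraries in all 9 ratios, and the ratios to Parp1 and Parp3 cross from below to above 0.

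Levels of different genes were compared per kilobase of merged exons (CPM per kb), a length that overstates the transcript of a gene with many isoforms. In GFP muscle the order was Parp3 (22.1 ± 1.13 CPM per kb), Parp1 (15.5 ± 0.909), Tiparp (6.01 ± 1.06), Parp4 (2.41 ± 0.228), Parp2 (2.12 ± 0.0744), Parp8 (1.70 ± 0.154), Parp12 (1.55 ± 0.217), Parp9 (1.41 ± 0.0678), Parp10 (1.17 ± 0.191) and Parp14 (0.726 ± 0.130). Parp8 and Parp12, and Parp12 and Parp9, were neighbours whose libraries overlapped. In CAAHR muscle Tiparp came first, at 26.2 ± 3.57 CPM per kb, and its libraries overlapped with those of Parp3 (24.2 ± 2.33). The rest kept their order, and Parp4 and Parp2 now overlapped as well. Tiparp made up 34.1% ± 1.82 of the summed level per kb of the 10 genes in CAAHR muscle and 11.0% ± 1.85 in GFP muscle. The sum of the other 9 was 50.5 ± 3.10 against 48.7 ± 1.67 CPM per kb, a difference within the spread between libraries.

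The members that act at DNA breaks did not pass the test. Parp1 (chromosome 1, 180568924 to 180601254), the main nuclear poly(ADP-ribose) polymerase, was at 76.3, 92.5 and 77.7 CPM in CAAHR replicates 31, 34 and 36 and at 85.4, 84.0 and 76.4 CPM in GFP replicates 42, 43 and 46. The groups overlapped and their means were nearly equal. Its log2 fold change was 0.004 ± 0.11 with a 95% interval from -0.29 to 0.30 (edgeR adjusted p 0.988), and its sign changed in 7 of the 14 alternative settings. Parp2 (chromosome 14, 50807841 to 50821301), which shares the chain-building activity of Parp1, had a log2 fold change of 0.16 ± 0.12 and an interval from -0.16 to 0.49. Parp3 (chromosome 9, 106470322 to 106476949), which adds single units at broken ends, was between 80.2 and 97.2 CPM in CAAHR and between 78.9 and 86.6 CPM in GFP libraries, with a log2 fold change of 0.13 ± 0.10 and an interval from -0.15 to 0.41. The intervals of all 3 genes leave out a doubling.

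Parp4 (chromosome 14, 56575619 to 56659794) encodes the enzyme of vault particles, large ribonucleoprotein shells of the cytoplasm. It was at 24.1, 15.2 and 21.7 CPM in CAAHR replicates 31, 34 and 36 and at 17.4, 14.6 and 15.1 CPM in GFP replicates 42, 43 and 46. Replicates 31 and 36 lay above all GFP libraries and replicate 34 among them. The log2 fold change was 0.37 ± 0.16 and was not called (edgeR adjusted p 0.209). It was called without CAAHR replicate 34 (0.54 ± 0.12, edgeR adjusted p 0.019) and without a filter on low counts (0.39 ± 0.12, edgeR adjusted p 0.0262). The p-values of the fit without a filter were on another scale, with 7.62e-70 for Tiparp against 1.29e-07 in the main fit (both edgeR). The call of Parp4 in that fit therefore carries little weight. The same replicate was the CAAHR library with the least slow-fibre transcript, as shown by the slow myosin Myh7 at 877, 156 and 808 CPM in replicates 31, 34 and 36 and 37.5 to 79.5 CPM in GFP muscle. Of the 9 slow-fibre genes, 1 was called higher, against 3.04% of all genes, and 8 had an unadjusted p under 0.05 by edgeR, against 23.9%. The part of fibre content in the Parp4 values was not tested. Parp8 (chromosome 13, 116854820 to 117025537), a little-studied relative, was at 11.0 to 14.1 CPM in CAAHR and 13.6 to 16.0 CPM in GFP libraries, with a log2 fold change of -0.23 ± 0.13 (edgeR adjusted p 0.312).

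The 4 interferon-responsive members had negative log2 fold changes with a median of -0.34, and 1 of the 4, Parp14, was called. Over all genes 48.8% were negative and 4.57% were called lower. Parp14 (chromosome 16, 35832874 to 35871544), a large transferase with macrodomains that read ADP-ribose, was at 3.89, 3.74 and 4.99 CPM in CAAHR replicates 31, 34 and 36. It was at 6.32, 8.12 and 5.83 CPM in GFP replicates 42, 43 and 46, so each GFP library lay above each CAAHR library, and replicate 43 was the highest. The log2 fold change was -0.68 ± 0.18 with an edgeR adjusted p of 0.0475, just under the threshold. That call was lost whenever any of the 6 libraries was left out, with log2 fold changes from -0.83 to -0.53. The value furthest from the call was that without GFP replicate 43, with an edgeR adjusted p of 0.167.

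Parp9 (chromosome 16, 35938470 to 35972605), which works as a pair with the ubiquitin ligase Dtx3l, was at 5.26, 5.21 and 5.64 CPM in CAAHR replicates 31, 34 and 36 and at 6.55, 7.21 and 6.91 CPM in GFP replicates 42, 43 and 46. The groups did not overlap, yet the log2 fold change of -0.36 ± 0.12 did not pass (edgeR adjusted p 0.11). It was not called in any of the 14 alternative settings. Dtx3l, which lies beside Parp9 on the opposite strand and shares 458 exonic bases with it, was at 9.002 to 9.94 CPM in CAAHR and 9.98 to 12.4 CPM in GFP libraries (log2 fold change -0.22 ± 0.12). Parp10 (chromosome 15, 76231174 to 76243441), a transferase of single units, had a log2 fold change of -0.21 ± 0.16. Of its exonic bases, 205 also lie in Plec on the same strand, a far more abundant gene. Parp12 (chromosome 6, 39086410 to 39118349), a zinc-finger member with antiviral activity, had one of -0.33 ± 0.19. The groups overlapped for both, with GFP replicate 42 as the GFP library within or below the CAAHR range.

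Of 37 interferon-responsive genes outside the family, 35 were tested, of which 7 (20.0%) were lower and 0 higher at an adjusted p under 0.05 by edgeR, against 4.57% and 3.04% of all genes. The number lower was 12 with DESeq2 and 4 with limma-voom, and none was higher with either. Over all genes, 1108 were lower with DESeq2 and 788 with limma-voom, against 724 in the main fit. The number of the 35 genes that were lower was 2 without CAAHR replicate 31, 3 without CAAHR replicate 36 and 4 without GFP replicate 43. Over all genes those 3 fits called 386, 325 and 451 lower. The 7 were Bst2, Ifit3b, Ifih1, Ifi27l2a, Ifit3, Cxcl10 and Zbp1. The other 28 did not pass. The median log2 fold change of the 35 was -0.62, and 34 were negative, where 48.8% of all genes were. The 37 genes summed to 68.6 to 94.1 CPM in CAAHR and 107 to 171 CPM in GFP libraries, or 107 to 114 CPM without GFP replicate 43. Among the more abundant genes of this list that did not pass, log2 fold changes were -0.26 ± 0.14 for Sp100, -0.02 ± 0.17 for Helz2 and -0.32 ± 0.19 for Stat2.

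The summed levels of immune cell markers were lower in each CAAHR library than in each GFP library. Macrophage markers summed to 28.3 to 48.0 CPM in CAAHR and 56.2 to 124 CPM in GFP libraries. Of these 12 genes 11 were tested and 0 were called by edgeR, against 7.60% of all genes, while 9 had an unadjusted p under 0.05, against 23.9%. B and plasma cell markers summed to 1.90 to 2.10 against 7.13 to 41.7 CPM, T and NK cell markers to 1.07 to 1.70 against 2.55 to 10.2 CPM, and neutrophil markers to 2.47 to 3.40 against 7.54 to 17.5 CPM. GFP replicate 43 alone set the upper ends for the first 3 lists, and without it they were 79.1 CPM for macrophage, 11.8 CPM for B and plasma cell and 2.81 CPM for T and NK cell markers. Called lower were 3 of 8 B and plasma cell genes, 1 of 3 tested T and NK cell genes of 10 listed, and 5 of 6 tested neutrophil genes of 7 listed, against 4.57% of all genes. Endothelial markers summed to 198 to 272 against 209 to 258 CPM and fibroblast markers to 289 to 527 against 412 to 508 CPM. Of these 8 and 6 genes 0 were called by edgeR, against 7.60% of all genes, and 1 and 0 had an unadjusted p under 0.05, against 23.9%. In whole muscle, fewer cells of a type and less RNA per cell cannot be told apart, and the part of immune cells in the Parp14 and Parp9 values was not tested. By quantitative PCR, the paper found selected immune genes to be no lower in CAAHR muscle than in muscle without virus. The paper takes its immune results as a sign of a local immune response to the GFP vector, which was not tested here.

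**Figure D4:**
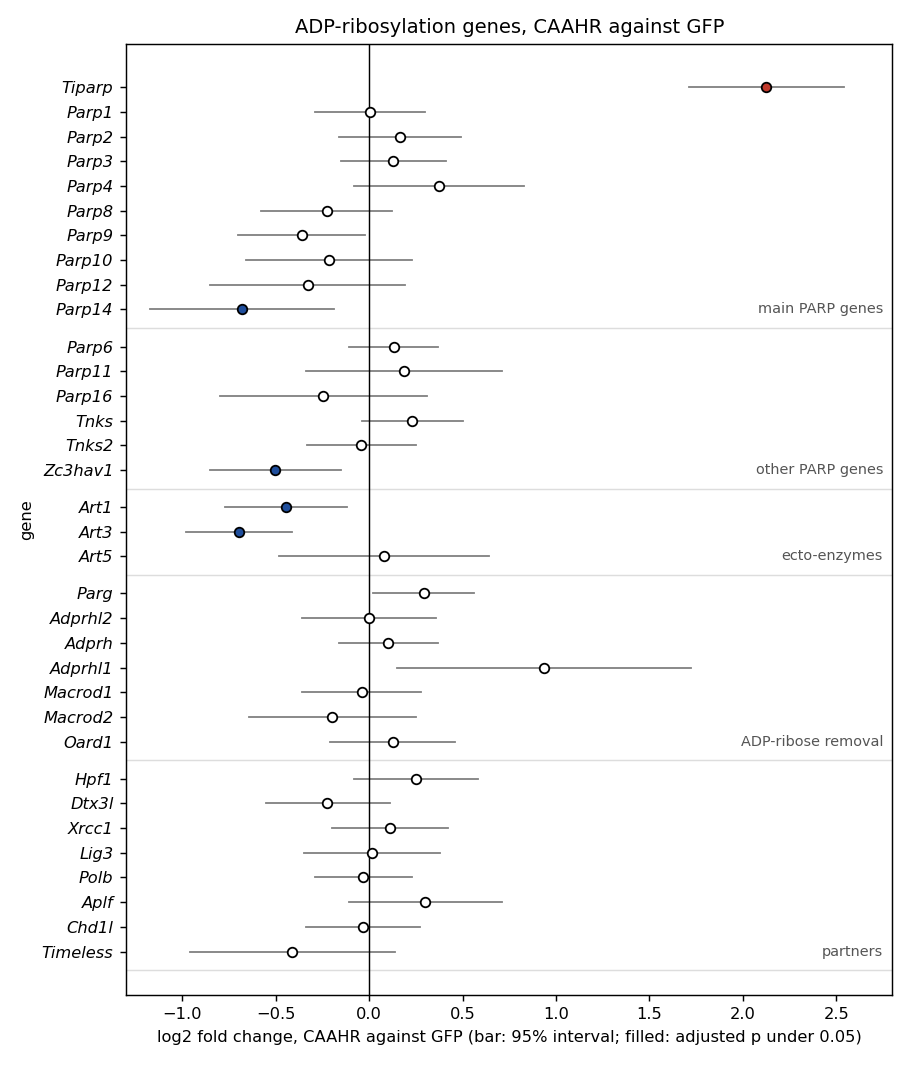
Log2 fold change of 34 ADP-ribosylation genes in CAAHR against GFP muscle, with the 95% interval as a bar; filled points have an adjusted p under 0.05 (red higher, blue lower). Tiparp stands alone on the right at 2.13, and Parp14, Zc3hav1, Art1 and Art3 are the filled points on the left.

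Among the 6 other PARP genes, 1 was lower and 0 were higher by edgeR, against 4.57% and 3.04% of all genes. An unadjusted p under 0.05 was reached by 2 of the 6, against 23.9% of all genes, with a median log2 fold change of 0.04. The lower gene was Zc3hav1, the zinc-finger antiviral protein also called PARP13, which has no transferase activity and binds viral RNA. It was at 6.997, 5.98 and 7.41 CPM in CAAHR replicates 31, 34 and 36 and at 9.34, 10.2 and 9.32 CPM in GFP replicates 42, 43 and 46. The groups stood apart, with a log2 fold change of -0.50 ± 0.13 and an edgeR adjusted p of 0.0417, and the call was lost in all 6 fits that left out a library. The tankyrases Tnks and Tnks2, which modify telomere and Wnt pathway proteins, had log2 fold changes of 0.23 ± 0.10 and -0.04 ± 0.10. Those of Parp6, Parp11 and Parp16 were 0.13 ± 0.09, 0.19 ± 0.19 and -0.25 ± 0.20.

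The ecto-ADP-ribosyltransferases, arginine-specific or related enzymes of the cell surface, are a separate family, and Art1 is abundant in skeletal muscle. Of 6 genes, 3 were tested and 2 were lower, against 4.57% of all genes. Art3 (chromosome 5, 92331827 to 92414628) was at 93.8, 103 and 94.0 CPM in CAAHR replicates 31, 34 and 36 and at 152, 173 and 147 CPM in GFP replicates 42, 43 and 46. The groups were well separated, and the log2 fold change of -0.70 ± 0.10 (edgeR adjusted p 0.0041) kept its call in all 14 alternative settings. Art1 (chromosome 7, 102101743 to 102113933) averaged 202 ± 23.7 CPM in CAAHR and 276 ± 17.3 CPM in GFP muscle, and its log2 fold change was -0.45 ± 0.12 (edgeR adjusted p 0.0475). That call was lost in 5 of the 6 fits that left out a library. Of the exonic bases of Art1, 36.5% also lie in Chrna10 on the opposite strand, which had 103 to 175 counts. Art3 shares 133 bases with Cxcl10, which had 9 to 81 counts. Of 10 abundant muscle genes, 3 were called lower, against 4.57% of all genes. Those 3 had log2 fold changes of -0.74 for Acta1, -0.73 for Ckm and -0.69 for Tnnt3. The other 7 did not pass, 4 of the 10 were positive, and the median was -0.16. Positive values included 1.03 ± 0.62 for Mb and 0.04 ± 0.13 for Ttn. Negative values that did not pass were -0.455 ± 0.2 for Pvalb, -0.31 ± 0.18 for Myh4 and -0.01 ± 0.16 for Atp2a1. For Pvalb each CAAHR library lay below each GFP library. The 10 summed to 169000 to 217300 CPM in CAAHR against 239100 to 243700 CPM in GFP libraries. Their part in the values of Art1 and Art3 was not tested. Art5 did not pass (0.08 ± 0.20), and Art2a-ps, Art2b and Art4 had too few counts to be tested.

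Of 7 genes that remove ADP-ribose or are relatives of such genes, 0 were called by edgeR, against 7.60% of all genes. An unadjusted p under 0.05 was reached by 2 of them, near the 23.9% of all genes. The median log2 fold change was 0.10. Parg, which cuts the chains built by Parp1, was at 25.6, 26.0 and 24.8 CPM in CAAHR replicates 31, 34 and 36 and at 22.9, 20.2 and 19.3 CPM in GFP replicates 42, 43 and 46. Its groups did not overlap, with a log2 fold change of 0.29 ± 0.10 (edgeR adjusted p 0.1), and it was called with library size only among the 14 alternatives. Adprhl1, a relative of the hydrolases that is expressed in heart and muscle, was at 62.5, 32.6 and 64.6 CPM against 23.9, 25.2 and 34.4 CPM. Replicate 34 lay within the GFP range, as for Parp4, and the log2 fold change was 0.94 ± 0.28 (edgeR adjusted p 0.104), or 1.18 with an edgeR adjusted p of 0.00153 without that library. DESeq2 (0.93, adjusted p 0.00181) and limma-voom (1.06, adjusted p 0.0219) called Adprhl1 with all libraries. The macrodomain hydrolase Macrod1, the most abundant of these genes at 199 ± 15.8 against 204 ± 21.9 CPM, had a log2 fold change of -0.04 ± 0.11. Log2 fold changes were 0.10 for Adprh, -0.20 for Macrod2, 0.13 for Oard1 and -0.001 for Adprhl2.

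Of 9 partners in DNA repair and ADP-ribose signalling, 0 were called and 0 had an unadjusted p under 0.05 by edgeR, against 7.60% and 23.9% of all genes, with 0 called by DESeq2 or limma-voom and a median log2 fold change of -0.03. Log2 fold changes ran from -0.41 ± 0.20 for Timeless, a replication fork protein, to 0.30 ± 0.15 for Aplf, a histone chaperone that binds ADP-ribose. Hpf1, the factor that directs Parp1 and Parp2 to serine, had one of 0.25 ± 0.12. The repair proteins drawn to ADP-ribose at single-strand breaks, Xrcc1, Lig3 and Polb, had values between -0.03 and 0.11.

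The genes whose pattern over the 6 libraries was most like that of Tiparp were found by the root mean square difference of log2 CPM centred on its mean, among genes with at least 50 counts on average. They were Stk36 (0.156), Zfp503 (0.162), Hectd2os (0.162), Fgf11 (0.165) and Igsf1 (0.197), with log2 fold changes between 1.91 and 2.41. Zfp503, a zinc-finger regulator, was at 37.5, 52.9 and 50.9 CPM in CAAHR replicates 31, 34 and 36 and 11.4, 10.7 and 8.40 CPM in GFP replicates 42, 43 and 46. For Parp14 they were Ifi205 (0.0582), Xaf1 (0.0801), Tmem106a (0.0896), Gbp9 (0.0917) and Irgm1 (0.0940), with log2 fold changes between -0.69 and -0.56. Of these, Irgm1 alone was called (edgeR adjusted p 0.047), where 4.57% of all genes were called lower. The others had edgeR adjusted p from 0.0584 to 0.164. For both sets the genes were picked by their pattern, so similar fold changes follow from the choice. Xaf1 was also on the interferon list. Gbp9, a guanylate-binding protein gene, was at 5.32, 5.72 and 6.99 CPM in CAAHR replicates 31, 34 and 36 and 9.18, 10.4 and 7.45 CPM in GFP replicates 42, 43 and 46.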

How the data were processed

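Poly(A)-selected RNA of gastrocnemius muscle was sequenced as paired ends. The authors trimmed reads with Trimmomatic 0.36, aligned them to GRCm38 with STAR 2.5.2b and counted unique exonic reads per gene with featureCounts, so the deposited values are raw counts. Per the methods, strand was used in counting where the library kept it, and whether these libraries did was not stated. Entries with a gene identifier but no symbol (174, 0.0154% of counts) were kept as genes.

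Groups and replicate numbers were taken from the sample titles, with 3 libraries per group. The study gives 3 male mice per group, but the labels do not tie libraries to animals, and p-values measure the spread between these libraries. Within a group, every pair of libraries differed by more than sampling noise (the smallest chi-square, divided by its degrees of freedom, was 21.6). The test was that of edgeR 4.0.16 under R 4.3.3 (filterByExpr, TMM, robust quasi-likelihood F test) over all 15847 genes tested, and p-values were adjusted by the Benjamini-Hochberg method at 0.05. Standard errors were derived from the F statistic, and 95% intervals from them with 4 residual degrees of freedom. DESeq2 1.42.0 and limma 3.58.1 (voom) were alternatives. On simulated counts for this comparison (15566 genes), 70 of 100 genes changed 2-fold and 87 of 100 changed 4-fold were called, and 21 of 178 calls were unchanged genes. Exon lengths, positions and overlaps came from GENCODE release 21 for mouse (GRCm38), and promoters from RefSeq (GRCm38.p6).

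The members, lists and tests were chosen with earlier results of these data known. Named were the 10 members, the genes of the other ADP-ribosylation lists, the AHR pathway genes, the most abundant interferon genes and the 5 genes most like Tiparp and Parp14. Names of called interferon genes, of overlapping genes and of single markers of muscle, slow fibres and immune cells were added after their values were seen. Some genes covered by this rule are counted in their lists but not reported here.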

Additional observations from a re-analysis of the deposited data

How the results depend on the processing

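No paired analysis was possible because no replicate number occurs in both groups. Each of the 10 genes was refitted in 14 settings, 6 of which left out a library. Of these 140 checks, 122 kept their direction and side of the threshold. The 9 that lost a call were all for Parp14, and the 2 that gained a call were for Parp4. The 7 that changed sign were for Parp1, whose log2 fold change was -0.005 with DESeq2 size factors and with the DESeq2 test, -0.067 with upper quartile scaling, -0.004 with at least 10 counts in every library and -0.046 with limma-voom, and ranged from -0.097 to 0.05 with a library left out. The number of the 10 genes called lower was 1 as reported and 0 with library size only, with limma-voom, without robust estimation and in each fit without a library. The number called higher was 2 without a filter, a fit whose p-values were on another scale, and from 1 to 2 with a library left out. Over all genes, 876 were called higher with library size only. Without a filter 1019 were higher and 1451 lower, and with DESeq2 815 were higher and 1108 lower. With a library left out, from 205 to 835 were higher and from 325 to 892 lower, where the low ends left out CAAHR replicate 36 and the high ends replicate 34. Fewer samples or more genes enter some of these fits, and otherwise the cause was not tested. The 9 within-library ratios, which share the Tiparp counts, kept their direction in all 63 checks.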
